A study of Mus musculus with 7 samples.

Results

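Macrophages that carried RNA of the Mrc1 group of genes made up a small class among the complement C1q-expressing cells of mouse mammary tumors. In each of 7 single-cell count matrices, barcodes with 200 to 6000 genes (mitochondrial genes dropped) were taken as cells. A Mrc1-type cell was a cell with at least 3 unique molecular identifiers (UMIs, counts of distinct captured RNA molecules) of C1qa, C1qb and C1qc together, at most 1 UMI of Epcam, Krt8 and Krt18 together, and at least 2 UMIs of Mrc1, Folr2, Lyve1, Cd163, F13a1 and Pf4 together. This rule found 252 cells among 1688 C1q cells and 15047 cells in all. A further 219 C1q cells had 1 UMI of the 6 genes, and the 1217 C1q cells with 0 UMIs of them served as the comparison within the same mouse. The cells were chosen on measured values, so the levels of the 12 genes of the rule are given as a description, with no test.

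The study asked how hexokinase 2 (HK2), an enzyme that phosphorylates glucose, bears on breast cancer metastasis. The 7 samples were one group, MMTV-PyMT; HK2 f/f, with the genotype label Wild type: in these mice the mouse mammary tumor virus promoter drives the polyoma middle T oncogene in mammary epithelium, both Hk2 alleles are flanked by loxP sites, and, per the methods of the study, tamoxifen was given but no Cre recombinase was carried, so Hk2 was intact. Each sample was a mammary tumor taken 3 months after it became palpable, dissociated with collagenase and run on Drop-seq with no sort for macrophages. The samples are named replicates 1, 2, 3, 4, 5, 7 and 8 after their titles, of which the first 4 belong to a CB title series and the last 3 to a WT title series. What the title series stand for is not given in the labels, and mice with HK2 deleted were not analysed here.

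Tissue macrophages of the mammary gland and of its tumors are commonly divided by what they express. Cells with the mannose receptor CD206 (Mrc1), the folate receptor beta (Folr2), the hyaluronan receptor LYVE1 and the hemoglobin scavenger receptor CD163 are known from connective tissue and from around blood vessels, where they take up macromolecules, dying cells and iron, and they are known as strong producers of CC chemokines. Other macrophages of tumors carry high levels of MHC class II, which presents antigen to CD4 T cells, or genes of lipid handling such as Trem2 and Apoe. C1q, the initiating component of the classical complement pathway, is made by most mature tissue macrophages and not by blood monocytes.

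Depth limited every value below. The Mrc1-type cells had a median of 672.5 UMIs per cell against 563 in the C1q cells without the 6 genes, and their median by mouse ran from 473 to 1319. No barcode of a Mrc1-type cell was a cell in another matrix, whereas 5 barcodes among the 15047 cells were found in more than 1 matrix. Of all barcodes, 1606 of 23000 in the CB title series and 0 of 14000 in the WT title series ended in the letter N. In 6 pairs of Mrc1-type cells of a matrix the barcodes differed at 1 base. Keeping the deeper barcode of each such group among all cells left out 1144 of the 15047 cells and left 244 of 1629 C1q cells. Replicate 2 had 6 Mrc1-type cells, under the minimum of 10 set for the tests, so the comparisons between cell classes rest on 6 mice. In those mice the summed UMIs per mouse without the genes of the rule were 18622 to 83682 for the Mrc1-type cells and 35836 to 360552 for the C1q cells without the 6 genes. Levels are given as CPM, the UMIs of a gene for each 1000000 UMIs of a mouse's summed cells, with the 12 genes of the rule left out of the total. Drop-seq tags the 3' end of each RNA, so CPM does not rise with gene length, although capture can differ between genes.

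The share of C1q cells that were Mrc1-type was 24.0% in replicate 1 (23 of 96 cells, 95% Wilson interval 16.5 to 33.4), 8.70% in replicate 2 (6 of 69, 4.05 to 17.7) and 12.8% in replicate 3 (18 of 141, 8.23 to 19.3). It was 13.1% in replicate 4 (100 of 765, 10.9 to 15.6), 24.0% in replicate 5 (43 of 179, 18.4 to 30.8), 11.1% in replicate 7 (29 of 262, 7.82 to 15.4) and 18.8% in replicate 8 (33 of 176, 13.7 to 25.2). Replicates 1 and 5 stood highest and replicate 2 lowest, and the ranges of the CB titles (8.70% to 24.0%) and the WT titles (11.1% to 24.0%) overlapped. The mean was 16.05% ± 6.22 (SD, n = 7 mice). The intervals cover counting error alone. With cells under 500 UMIs left out and the others thinned to 500 UMIs before the rule was applied, the mean was 11.9%, and with at least 3 UMIs of the 6 genes it was 11.4%.

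**Figure D1:**
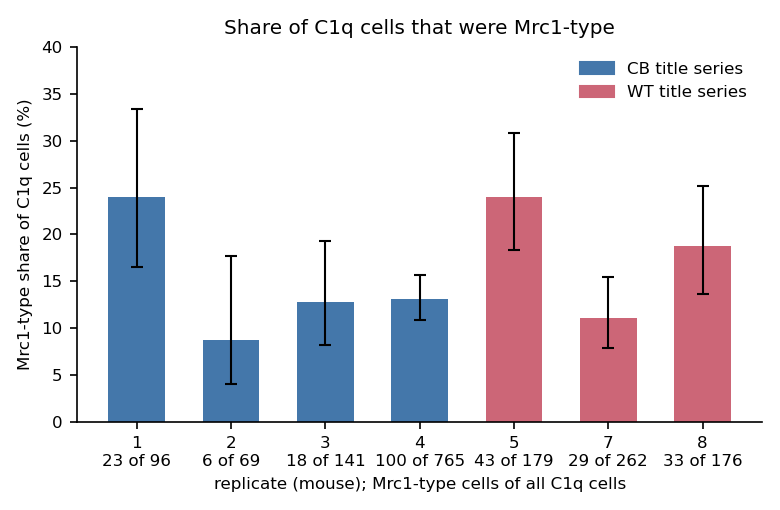
Share of C1q cells that were Mrc1-type, in percent, for each of the 7 mice, with 95% Wilson intervals as bars and the title series marked by color. The values run from 8.70% in replicate 2 to 24.0% in replicates 1 and 5, and the CB and WT series overlap.

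Pf4, the chemokine platelet factor 4 that macrophages also make, was the most frequent of the 6 genes, with a UMI in 81.0% of the Mrc1-type cells (204 of 252). Mrc1 had a UMI in 63.1% (159), F13a1, the A subunit of coagulation factor XIII, in 46.4% (117), and Folr2 in 31.7% (80). Lyve1 was seen in 14.3% (36) and Cd163 in 5.56% (14), with 7 of those 14 cells in replicate 1. A median of 4 UMIs of the 6 genes was found per cell, with 30 at the highest, and 68 cells (27.0%) had a UMI of a single one of them, which was Pf4 in 39, Mrc1 in 22, F13a1 in 6 and Folr2 in 1. Of the markers in the label's set, Pf4 and Mrc1 thus covered most of the cells, Folr2 fewer, and Cd163 few.

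Levels of the same genes differed between mice. Mrc1 ran from 543 to 3168 CPM over the 6 mice with at least 10 cells (median 1411), Folr2 from 107 to 916 (median 542), and F13a1 from 271 to 1797 (median 905). Pf4 was the most even of the 6, at 1939 to 3011 CPM (median 2893), whereas Lyve1 ran from 38.8 to 1244 and Cd163 from 0 to 783, with replicate 1 highest in both. C1qa, C1qb and C1qc, with medians of 4795, 6072 and 3880 CPM in the Mrc1-type cells, had medians of 4404, 6153 and 4175 in the C1q cells without the 6 genes, and the ranges overlapped for each.

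The 6 genes were rare in epithelial cells and less so in myeloid cells without C1q. In cells thinned to 500 UMIs, Mrc1 was seen in 52.7% of 169 Mrc1-type cells (83 shallower cells left out) and in 0.111% of 4507 epithelial cells, and Pf4 in 65.1% and 0.111%. Folr2 was seen in 20.1% and 0.178%, F13a1 in 29.6% and 0.244%, Lyve1 in 13.02% and 0.0222%, and Cd163 in 5.92% and 0.0888%. Unthinned, the epithelial shares were 0.0524% to 0.822% at a median of 1002 UMIs per cell. Epithelial cells are not known for these 6 genes, but the epithelial class was chosen with 0 C1q UMIs, so its shares may understate the background of macrophage RNA. The rule itself set the higher shares in the Mrc1-type cells, and the source of the UMIs outside the macrophages was not tested. Myeloid cells without C1q were a class whose rule takes in monocytes and granulocytes and does not exclude dendritic cells. They carried Mrc1 in 9.80% and F13a1 in 11.8% of 153 thinned cells, Pf4 in 3.27% and Cd163 in 1.31%. They had 0 UMIs of Folr2 and Lyve1, which allows a share of up to 1.96% of cells with a UMI at this depth and sets no limit on cells that express the gene.

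General macrophage genes were present in both classes. Of 12 genes of the macrophage identity list that were tested, 1 was higher in the Mrc1-type cells than in the C1q cells without the 6 genes, none was lower, and the median log2 fold change was -0.06 beside 0.02 over all genes tested, of which 8.65% were higher. Csf1r, the receptor for the macrophage growth factor CSF1, was at 233 to 812 CPM (median 522) against 370 to 629 (median 491), and Adgre1, which encodes F4/80, at 116 to 591 CPM (median 242) against 120 to 271 (median 208). The groups overlapped for both genes. Lyz2, the lysozyme of myeloid cells, was the gene that rose, from 5031 to 10167 CPM (median 7298) in the C1q cells without the 6 genes to 11844 to 33702 CPM (median 16327), with a log2 fold change of 1.30 ± 0.21 (SE) and a higher value in 6 of 6 mice (edgeR quasi-likelihood test, Benjamini-Hochberg adjusted p = 0.00028). Its groups did not overlap in these 6 mice. With the 6 cells of replicate 2 included the adjusted p was 0.0509, and in the WT title series alone 0.126.

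Markers of other cell types were measured in the class, and their part in the results was not tested. The T and NK list summed to 0 to 167 CPM per mouse, against 0 to 391 in the C1q cells without the 6 genes, and Cd3e, Gzma, Gzmb and Ncr1 had no UMI in any Mrc1-type cell. The dendritic list summed to 27.2 to 461 CPM against 77.5 to 446, with Flt3, Xcr1, Clec9a and Zbtb46 at 0 UMIs, and the granulocyte list to 0 to 131 against 27.9 to 1739. The monocyte list summed to 892 to 2984 CPM against 1008 to 1653, with a UMI in 61.9% of the Mrc1-type cells and in 52.2% of the others and 3 or more in 22.2% and 12.3%. Its gene Ccr2 had a log2 fold change of 1.09 with an adjusted p of 0.0614 and was higher in 4 of 6 mice. Of the mast cell list, 7 of 8 genes were at 0 UMIs, and of the endothelial list 7 of 11, with Pecam1 and Kdr among them. The endothelial sum of 0 to 582 CPM against 0 to 144 was carried largely by Pdpn (median 152 against 52.3 CPM), which macrophages can also express. An endothelial list UMI was present in 8.73% of the Mrc1-type cells and in 3.45% of the others, and 3 or more in 2.38% and 0.247%. The fibroblast list summed to 0 to 2074 CPM against 30.1 to 5771, and the erythroid list to 0 to 12029 against 0 to 19430. The epithelial list summed to 785 to 3088 CPM against 723 to 4465, and an epithelial UMI was present in 59.5% of the Mrc1-type cells and in 58.0% of the others. A UMI of a T, B, endothelial or fibroblast list gene was present in 32.5% and 31.1% of cells.

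The comparison of the Mrc1-type cells with the C1q cells without the 6 genes asked which other genes went with the 6. Across 809 genes tested with mouse as a block, 70 were higher (8.65% of those tested) and 39 lower (4.82%) in the Mrc1-type cells by the edgeR quasi-likelihood test at an adjusted p under 0.05. Of these, 46 were higher and 29 lower in every mouse. A lack of overlap is given for single genes as a description, since they were named for their change. How many of all genes tested lack overlap was not counted. Among the called genes that rose most in every mouse were chemokines (Ccl8, Ccl7, Ccl6 and Ccl2), genes known from resident macrophages (Cbr2, Maf), the gene of the secreted resistin-like protein Retnla, the lipid transfer protein gene Pltp, the heme-degrading enzyme gene Hmox1 and S100a10. Those that fell most included the MHC class I-like gene H2-M2, the integrin gene Itgax, which encodes CD11c, the cytokine gene Il1b, and genes of MHC class II. In the CB title series alone 72 genes were higher and 41 lower, and in the WT series alone 26 and 15. Without replicate 4, which held 100 of the 252 cells, the counts were 39 and 17.

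Ccl8, a chemokine that attracts monocytes and lymphocytes, showed the largest rise among the called genes that were higher in every mouse. It was at 2211 to 10946 CPM (median 3896) in the Mrc1-type cells and at 45.2 to 208 CPM (median 69.3) in the C1q cells without the 6 genes. The groups were far apart in all 6 mice, and the log2 fold change was 5.80 ± 0.29 (SE, adjusted p = 7.5e-10 by the edgeR quasi-likelihood test). A Ccl8 UMI was present in 46.0% of the Mrc1-type cells and 3.86% of the others, or 39.7% and 2.72% after thinning, whereas fibroblasts, which also make it, had one in 13.7% (7.05% thinned).

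Cbr2, a carbonyl reductase gene, was at 349 to 1047 CPM (median 601) against 0 to 112 CPM (median 18.9), a log2 fold change of 4.92 ± 0.40 (SE, adjusted p = 3.1e-07 by edgeR). A Cbr2 UMI was present in 30.6% of the Mrc1-type cells, in 1.23% of the others and in 9.83% of epithelial cells (4.84% thinned). Maf, a transcription factor of macrophage maturation, was at 465 to 1361 CPM (median 642) against 75.3 to 223 CPM (median 87.4), a log2 fold change of 2.96 ± 0.27 (SE, adjusted p = 1.2e-06). Neither gene overlapped between the groups. Selenop, which encodes a secreted selenium carrier protein, was at 1590 to 4189 CPM (median 2786) against 762 to 1172 CPM (median 1148), with no overlap (log2 fold change 1.45 ± 0.16 SE, adjusted p = 8.8e-06). With Ccl8, Fcrls (1.79), the clathrin adaptor gene Dab2 (1.29) and the adhesion gene Ninj1 (1.25 on the log2 scale), these made 7 genes higher and none lower among 8 tested of a 22-gene list of resident macrophage genes, whose median log2 fold change was 1.62. These 8 were the listed genes above the count filter, which a gene can pass through its level in the Mrc1-type cells alone. Both the count and the median hold for these genes only, beside 8.65% higher of all genes tested. Over 21 fits other than the unfiltered one, 5 to 14 listed genes were higher and none was lower. The list was chosen with earlier results of these data known, and the fits draw on the same mice. Neither is independent support. The list summed to 8610 to 21885 CPM per mouse in the Mrc1-type cells and to 2424 to 2944 CPM in the others. The summed ranges did not overlap.

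**Figure D2:**
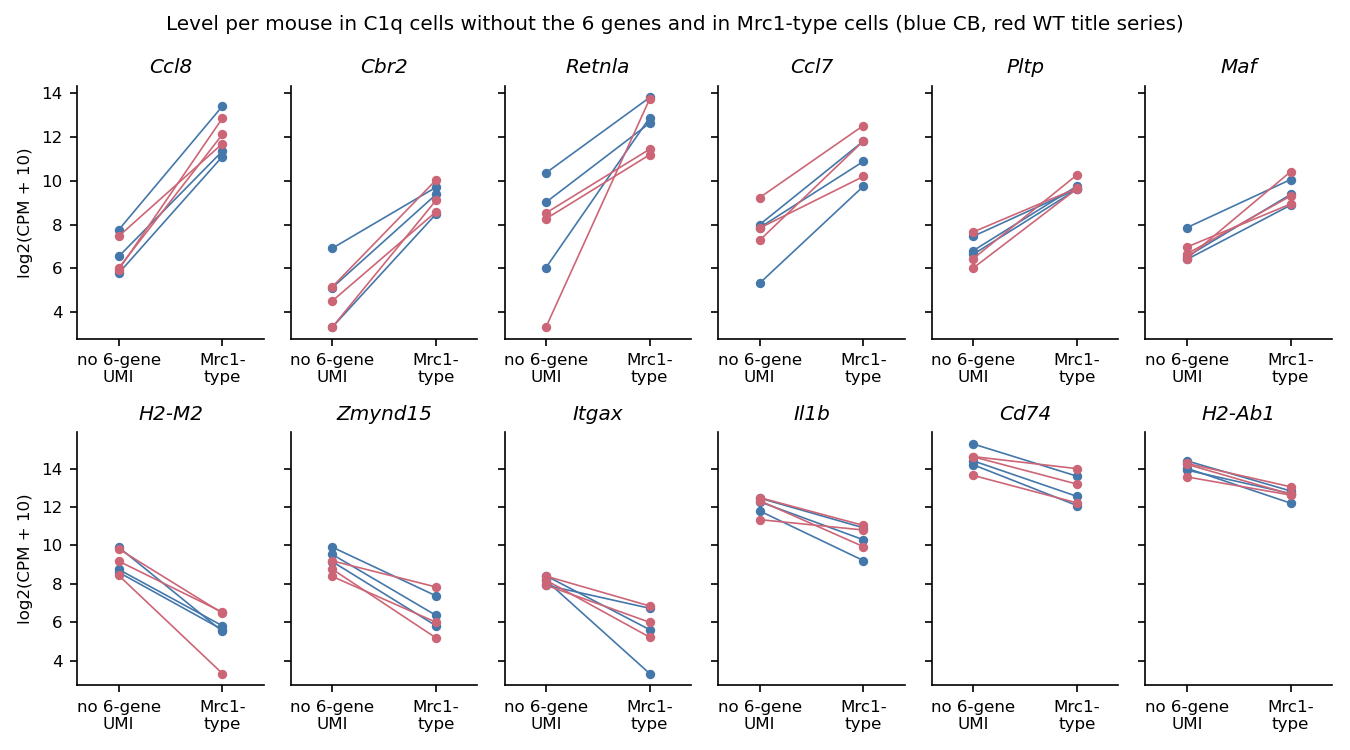
Levels of genes that rose (upper row) and fell (lower row), on a log2 axis of CPM plus a small constant. Each line joins the C1q cells without the 6 genes and the Mrc1-type cells of 1 mouse, for 6 mice, colored by title series. Ccl8 sits between 2211 and 10946 CPM in the Mrc1-type cells and between 45.2 and 208 CPM in the others, whereas H2-M2 is at most 81.7 CPM in the Mrc1-type cells and at least 336 CPM in the others.

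Several genes of the same list were too sparse for the test and were picked for their UMI counts after these were seen. Fcna, which encodes the lectin ficolin A, had 73 UMIs in the Mrc1-type cells and 1 UMI in the 1217 C1q cells without the 6 genes. By replicate the 73 were 7, 0, 4, 39, 21, 2 and 0. The C-type lectin genes Cd209f and Cd209d had 72 against 2 and 34 against 1 UMIs, and Cd209g had 50 against 0, a level at least 60.8-fold higher when 3 counts are taken as the floor over the 6 mice together, or at least 31.5-fold without replicate 4 and 30.2-fold without replicate 5, which held 21 and 26 of the 50 UMIs. None of the 3 Cd209 genes had a UMI in the Mrc1-type cells of replicates 2, 7 and 8. Clec10a, the macrophage galactose-type lectin, had 74 against 8 UMIs, a ratio of CPM over the 6 mice of 33.8 (95% counting interval 16.3 to 81.1), and the endothelin receptor gene Ednrb had 41 against 4 (37.4, 13.6 to 144). Without replicate 4, which held 3 of those 4 UMIs, the Ednrb ratio was 84.7 (13.9 to 3474). Gas6, a bridging ligand for the uptake of dying cells, had 82 against 37 UMIs, and the growth factor gene Igf1 had 82 against 54.

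Of 12 CC and CXC chemokine genes tested, 7 were higher and 1 was lower in the Mrc1-type cells, with a median log2 fold change of 1.24 beside 0.02 over all genes. Among all genes tested, 8.65% were higher and 4.82% lower. These 12 were the listed genes above the count filter. With no filter on low counts, all 19 were tested, 7 were higher and 5 lower, and the median was 0.30. Together the 19 listed genes made 16684 to 31524 CPM against 5694 to 14573 CPM. The list shares Ccl8 with the resident macrophage list.

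Ccl7, Ccl2 and Ccl12, all ligands of the monocyte receptor CCR2, rose with Ccl8. Ccl7 was at 853 to 5907 CPM (median 2743) against 30.1 to 594 CPM (median 222), without overlap, and Ccl2 at 708 to 2363 CPM (median 1473) against 167 to 452 CPM (median 283), also without overlap. Their log2 fold changes were 3.62 ± 0.25 (adjusted p = 5.8e-08) and 2.42 ± 0.30 (SE, adjusted p = 2.9e-05, edgeR), each higher in 6 of 6 mice. Ccl12 was at 349 to 1440 CPM (median 1027) against 194 to 403 (median 265) and was higher within each of the 6 mice, although the ranges overlapped (1.71 ± 0.27 SE, adjusted p = 0.00021). Fibroblasts also held Ccl2 and Ccl7, at means of 1901 and 1537 CPM.

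Ccl6 and Ccl9, ligands of the receptor CCR1, were also higher. Ccl6 ran from 644 to 8803 CPM (median 3676) against 342 to 707 CPM (median 472), and Ccl9 from 537 to 1806 CPM (median 1091) against 168 to 436 CPM (median 344). The ranges of Ccl6 met only through the mouse with the lowest level, and those of Ccl9 did not overlap, with log2 fold changes of 2.83 ± 0.29 (adjusted p = 3e-06) and 1.84 ± 0.25 (SE, adjusted p = 5e-05, edgeR). Cxcl2, a ligand that attracts neutrophils, was at 3184 to 6820 CPM (median 5469) against 1343 to 4862 CPM (median 3621) and passed the test narrowly (0.77 ± 0.24 SE, adjusted p = 0.048). Its call did not hold without replicate 1, 3, 4, 5 or 8, with adjusted p of 0.0639, 0.109, 0.182, 0.113 and 0.11.

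Other chemokines did not share the rise. Cxcl16, which attracts T cells, was lower at 393 to 680 CPM (median 567) against 826 to 1310 CPM (median 1219), without overlap (log2 fold change -1.04 ± 0.17 SE, adjusted p = 0.00038 by edgeR). Cxcl9, an interferon-induced ligand for activated T cells, was too sparse for the test, with 1 UMI in the Mrc1-type cells and 78 in the others (48 of them in replicate 4).

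The genes of these 3 CCR2 ligands and Ccl8 lie close together. On chromosome 11 (GRCm38, GENCODE annotation) Ccl2 spans chr11:82035571-82037453, Ccl7 chr11:82045712-82047525, Ccl12 chr11:82101845-82103400 and Ccl8 chr11:82115185-82116799, all protein-coding and on the plus strand, with 8.26, 54.3 and 11.8 kb from each to the next of these 4 genes, and Ccl11 lies between Ccl7 and Ccl12. Ccl9 (chr11:83572919-83578636) and Ccl6 (chr11:83587882-83593087) form a second pair on the minus strand, 9.25 kb apart. The 250 bases before the starts of Ccl8 (chr11:82114935-82115184, plus strand) and Ccl12 (chr11:82101595-82101844, plus strand), from RefSeq on GRCm38.p6, are shown because these adjacent genes were higher together. Capitals mark TATAAAA, the sequence of a TATA box, and TGCTGA, the core letters of the element known for Maf proteins, on either strand (TTTTATA and TCAGCA as the reverse complements).
Ccl8: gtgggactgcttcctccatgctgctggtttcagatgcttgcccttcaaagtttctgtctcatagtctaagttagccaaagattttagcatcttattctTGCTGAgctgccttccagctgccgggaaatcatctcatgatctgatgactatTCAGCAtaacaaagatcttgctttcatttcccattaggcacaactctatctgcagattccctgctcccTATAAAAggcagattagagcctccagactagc
Ccl12: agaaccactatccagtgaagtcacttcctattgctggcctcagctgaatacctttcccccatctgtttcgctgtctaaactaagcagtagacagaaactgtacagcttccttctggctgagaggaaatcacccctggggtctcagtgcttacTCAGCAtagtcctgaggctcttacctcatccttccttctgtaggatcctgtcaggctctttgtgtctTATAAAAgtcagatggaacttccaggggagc
Ccl8 held TATAAAA at 1 place and TGCTGA at 2, and Ccl12 held each at 1. The same window of Ccl9 held TATAAAA at 3 places and TGCTGA at 0, and that of Ccl6 held neither. Of 32851 mouse promoters of this length, 4.98% held TATAAAA and 16.1% held TGCTGA. A match describes these letters and is not evidence that a factor binds there.

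Retnla, a secreted protein induced by interleukin 4 in macrophages, was at 2341 to 14424 CPM (median 7002) in the Mrc1-type cells and at 0 to 1312 CPM (median 330) in the others. The groups did not overlap, and the log2 fold change was 4.28 ± 0.57 (SE, adjusted p = 4.4e-05 by edgeR). The RNA was uneven between cells: a UMI was present in 80 of the 252 cells, and 10 cells held 50.8% of all its UMIs. Arg1, arginase 1, had 148 UMIs in the Mrc1-type cells and 65 in the others (a CPM ratio of 9.65, 95% counting interval 7.05 to 13.4, over 6 mice), with 75 of the 148 in replicate 4 and none in replicates 2 and 5. The ratio was 6.26 without replicate 4 and 14.5 without replicate 8. The order was the opposite in replicate 8, at 161 against 258 CPM (3 and 20 UMIs), and in replicate 2, with 0 against 9 UMIs. Nos2 and Chil3 of the same list had 0 UMIs in the Mrc1-type cells.

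Other genes named by the size of their rise were Pltp, Hmox1, S100a10, Cfp and Emp1. Pltp, phospholipid transfer protein, was at 776 to 1230 CPM (median 797) against 54.9 to 194 (median 96.5), and Hmox1, heme oxygenase 1, at 215 to 550 CPM (median 348) against 30.1 to 83.7 (median 51.5). Neither overlapped, and their log2 fold changes were 3.15 ± 0.28 and 2.73 ± 0.27 (SE, adjusted p = 9.1e-07 and 2.9e-06, edgeR). S100a10 (2.50), the complement regulator properdin Cfp (2.32) and the membrane protein gene Emp1 (2.27 on the log2 scale) were also higher in every mouse, as the choice of named genes required. Of these, Cfp overlapped between the groups.

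MHC class II genes were lower. Of 6 tested, 5 fell and none rose, with a median log2 fold change of -1.26 beside 0.02 over all genes. Of all genes tested, 4.82% were lower and 8.65% higher. The 8 listed genes summed to 16366 to 36677 CPM in the Mrc1-type cells against 56032 to 83436 CPM in the others. The summed level was lower in 6 of 6 mice, without overlap. Cd74, the invariant chain, was at 4305 to 16325 CPM (median 7672) against 12778 to 39792 CPM (median 23341), lower within each mouse although the ranges overlapped (log2 fold change -1.46 ± 0.19 SE, adjusted p = 3.3e-05 by edgeR). H2-Ab1, the beta chain of the I-A molecule, was at 4693 to 8482 CPM (median 6557) against 12110 to 21642 CPM (median 17813), without overlap (-1.33 ± 0.16 SE, adjusted p = 2.2e-05). H2-Eb1 (-1.34), H2-Aa (-1.18) and H2-DMb1 (-1.19), a chain of the peptide-loading molecule, also fell, and H2-DMa had a log2 fold change of -0.61 with an adjusted p of 0.067. In the WT title series alone, with 3 mice, H2-Aa, H2-Eb1 and H2-DMb1 did not pass. H2-DMb1 also did not pass with matched UMIs, with at least 500 genes per cell or with cells that carried UMIs of other lineages left out, whereas Cd74 and H2-Ab1 kept their calls in each alternative.

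The other large falls were counted gene by gene and not as a list. H2-M2 was at 0 to 81.7 CPM (median 42.4) against 336 to 946 CPM (median 493), the largest fall among the called genes that were lower in every mouse of the fit (log2 fold change -3.67 ± 0.36 SE, adjusted p = 2.4e-06 by edgeR). In replicate 2, which was not in the fit, its 6 Mrc1-type cells were at 676 CPM (6 UMIs) and the others at 207, the opposite order. Il1b, interleukin 1 beta, was at 582 to 2096 CPM (median 1508) against 2582 to 5739 CPM (median 5031), without overlap (-1.66 ± 0.21 SE, adjusted p = 3e-05).

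Zmynd15 (-2.62), Plbd1 (-2.24), Cyp4f18 (-2.15), Itgax (-1.98), the long noncoding RNA AW112010 (-1.93), Arl5c (-1.87), the C-type lectin Cd72 (-1.68) and the phosphatase Acp5 (-1.59 on the log2 scale) were named from the called genes that were lower in all 6 mice. Their ranges did not overlap between the groups, but they were chosen as large falls in every mouse. The share without overlap among all genes tested was not counted. In the WT title series alone, with 3 mice, AW112010 (adjusted p = 0.0513), Acp5 (0.205) and Cd72 (0.116) did not pass. Itgax, for example, was at 0 to 105 CPM against 232 to 331. Il12b, a subunit of interleukin 12, had 0 UMIs in the Mrc1-type cells and 88 in the others and was picked after its counts were seen.

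Lists for other macrophage functions were mixed. Of 21 lysosome genes, all tested, 5 rose and 2 fell, with a median log2 fold change of 0.03. The counts of this and the iron list stand beside 8.65% higher and 4.82% lower of all genes tested. The proteases Ctsl (1.74), Ctsd (1.42) and Ctsb (0.57), the growth factor progranulin Grn (0.81) and the membrane protein Lamp1 (0.66) were higher, and Ctss (-0.64), which trims the invariant chain, and Ctsz (-0.49) were lower. Ctsl ran from 817 to 4538 CPM (median 1591) against 330 to 753 (median 572), without overlap, and Ctss from 3613 to 7873 CPM (median 4835) against 7243 to 9599 (median 8593), with overlap. Of 6 genes of iron and heme handling tested, 3 rose and none fell: Hmox1, the ferritin light chain Ftl1 (0.63) and biliverdin reductase B, Blvrb (1.11). Several of these small changes did not pass with 1 mouse fewer, while their size moved little. Without replicate 4 the log2 fold changes were 0.56 for Ctsb, 0.57 for Ftl1, 0.63 for Lamp1, -0.62 for Ctss and -0.49 for Ctsz. The adjusted p was then 0.0639 for Ctsb and Ftl1, 0.05 for Lamp1, 0.0703 for Ctss and 0.0985 for Ctsz, and without replicate 3 it was 0.0673, 0.0625 and 0.0817 for Ctsb, Ftl1 and Ctsz and 0.0555 for Blvrb. Without replicate 7 Ctsb and Ftl1 were at 0.0753 and 0.061, and without replicate 5 Ctsz at 0.0754. Grn was not called in the CB title series alone (adjusted p = 0.329) nor with matched UMIs (0.102). With cells that carried UMIs of other lineages left out, 1 of the 21 lysosome genes was higher and 6 were lower, with a median of -0.18. Ctsd then had a log2 fold change of 0.61 (adjusted p = 0.241), and it did not pass in the WT title series alone (0.234).

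The list of lipid-handling and Trem2-type genes did not move one way. Of 14 tested, 3 rose, 2 fell and the median log2 fold change was -0.12, beside 8.65% higher and 4.82% lower of all genes tested. Trem2, a lipid receptor, was at 277 to 1125 CPM (median 620) against 215 to 482 (median 320), with overlap (1.20 ± 0.28 SE, adjusted p = 0.0077 by edgeR), and stood at an adjusted p of 0.0555 without replicate 3 and 0.0639 without replicate 4. Spp1, osteopontin, ran from 52.4 to 17956 CPM against 284 to 3161 CPM, higher in 4 of 6 mice, and passed at an adjusted p of 0.019 but not without replicate 3, 4 or 7 (0.161, 0.159 and 0.0798) nor without cells that carried UMIs of other lineages (0.68). In 10 of the 252 cells lay 76.7% of its UMIs, and epithelial cells held it at a mean of 2648 CPM, the part of which in this result was not tested. The fatty acid binding protein Fabp5 (1.34) rose, with an adjusted p of 0.044 that was 0.0951 to 0.261 without replicate 1, 3, 4 or 7, and Itgax and the adhesion gene Cadm1 (-1.28) fell. Apoe, apolipoprotein E, was at 16914 to 51822 CPM (median 34806) against 28468 to 38415 (median 30546), with overlap and an adjusted p of 0.89.

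Among 5 interferon-stimulated genes tested, Ifi27l2a (1.63), Ifitm2 (1.82) and Ifitm3 (1.26 on the log2 scale) were higher, none was lower, and the median was 1.26. That median covers the 5 of 15 listed genes above the count filter, and DESeq2, which tested 12 of them, called 3 higher and gave a median of -0.10. Ifi27l2a ran from 806 to 2904 CPM (median 1511) against 319 to 874 (median 602). Klf4 (1.06) and Ier3 (1.66) rose of 15 immediate early genes, and the list's median was 0.14. The count of each list named here is to be read beside 8.65% higher and 4.82% lower of all genes tested. The other lists held few calls: the complement receptor C5ar1 (1.21) rose and the glucan receptor Clec7a (-1.18) fell of 7 phagocytic and Fc receptors, and Timp2 (1.18) and Grn rose while Tgfbi (-0.86) fell of 6 growth factor and matrix genes. Without replicate 4 the adjusted p was 0.0639 for Klf4, 0.0553 for Ier3 and 0.0645 for C5ar1. Of 3 cell cycle genes tested none was called, and Mki67, a marker of dividing cells, was at a median of 92.5 CPM against 79.1.

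The genes at the center of the study were near the limit of detection. Hk2 had 19 UMIs in the Mrc1-type cells and 72 in the others, a CPM ratio over 6 mice of 1.12 (95% counting interval 0.632 to 1.90), with 27.2 to 184 CPM by mouse (median 106) against 30.1 to 142 (median 90.2). Hk1 had 4 against 10 UMIs and Hk3, the isoform known from myeloid cells, 5 against 22, so no difference in hexokinases was detectable at this depth. None of 5 glycolysis genes tested was called (median log2 fold change 0.12, Gapdh 183 to 708 CPM against 140 to 633), and no gene of GSK3 or protein kinase A reached the minimum for the test.

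**Figure D3:**
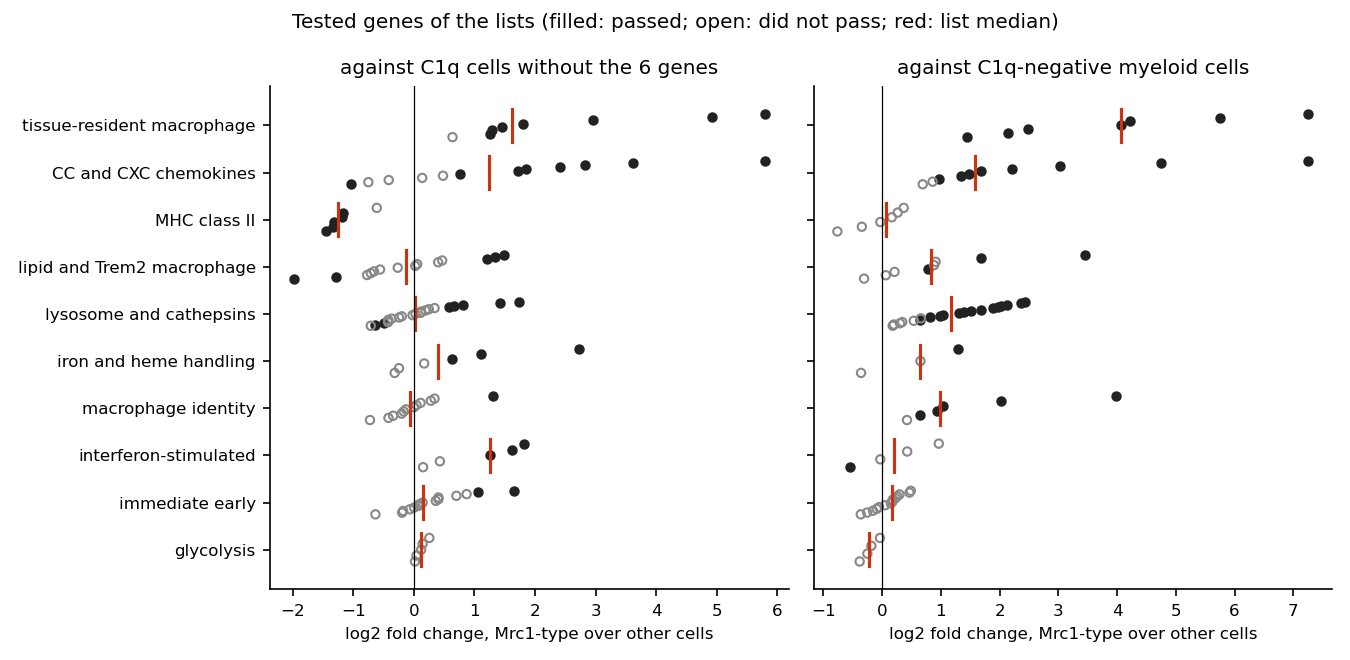
Log2 fold changes of the tested genes of each list in the Mrc1-type cells, 1 point per gene, against the C1q cells without the 6 genes (left) and the myeloid cells without C1q (right). Points are filled where the gene was called by the edgeR quasi-likelihood test, and a line marks the list's median. On the left, resident macrophage genes and chemokines lie mostly above 0 (medians 1.62 and 1.24) and MHC class II genes below it (median -1.26).

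The levels of these genes also moved in steps with the number of UMIs of the 6 genes, which lay on both sides of the threshold of 2. In pooled cells with 0, 1, 2, 3 to 5 and 6 or more UMIs of them (1217, 219, 68, 88 and 96 cells), Ccl8 stood at 127, 560, 2109, 4490 and 10634 CPM, and Cd74 at 21299, 13803, 13888, 9064 and 4394 CPM. Il1b stood at 5018, 3635, 3515, 1375 and 481 CPM, whereas Csf1r stayed between 447 and 583 CPM and Apoe between 32134 and 39945 CPM in all 5 classes. Cells just outside the threshold (1 UMI) thus lay between those with 0 UMIs and the members for Ccl8, Cbr2 and Maf. The median depth was 563, 649, 588.5, 588.5 and 808 UMIs per cell, so the deepest class was also the one with the most UMIs of the 6 genes. Retnla did not follow the order at the top, with 675, 2992, 5384, 14382 and 8481 CPM. These values describe the choice of cells and were not tested.

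**Figure D4:**
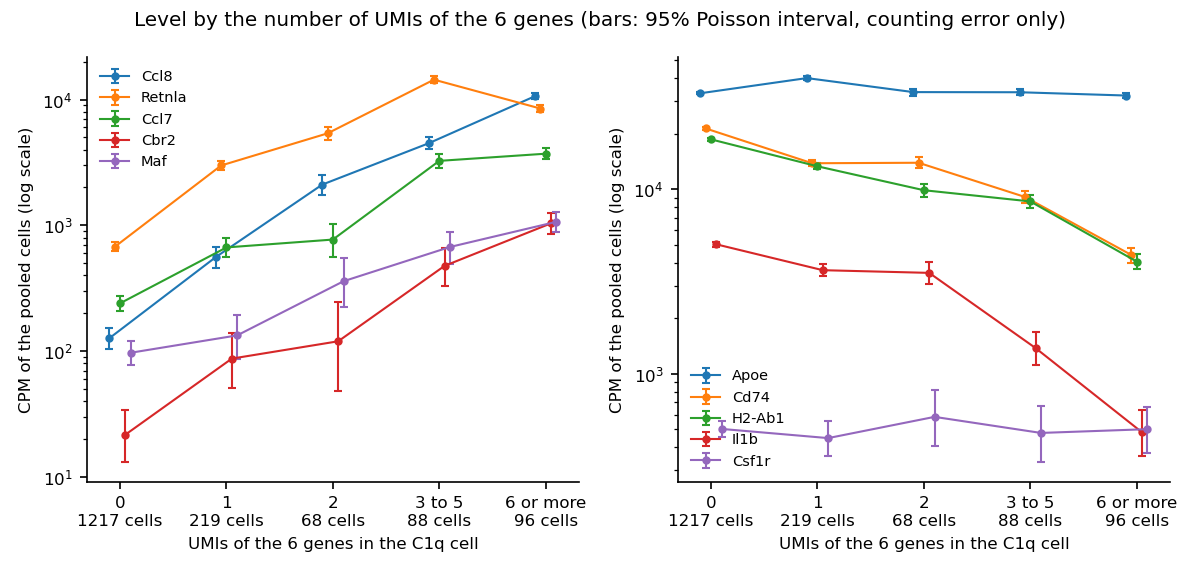
Levels in CPM, on a log axis, in C1q cells pooled over 7 mice by their number of UMIs of the 6 genes (0, 1, 2, 3 to 5, and 6 or more). Ccl8 climbs from 127 to 10634 CPM and Cd74 falls from 21299 to 4394 CPM over the 5 classes, whereas Apoe and Csf1r stay nearly level.

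The Mrc1-type cells were also divided by Folr2, Lyve1 and Cd163, which are genes of the rule, so this split follows the choice of cells. The cells without these UMIs entered through Mrc1, F13a1 or Pf4. The split was not told apart from the steps with the number of UMIs of the 6 genes. The 98 cells with a UMI of Folr2, Lyve1 or Cd163 held less Cd74 (3572 CPM) than the 154 without (11693 CPM), and H2-Aa, H2-Ab1, H2-Eb1 and Cd72 were likewise lower in 6 of 6 mice. They held more Cbr2 (1002 against 361 CPM), Maf (1111 against 512), Hmox1 (556 against 136), Pltp and Lyz2 in 6 of 6 mice, and more Ccl8 (11142 against 3208 CPM) in 5 of 6. The median depth was 736.5 and 634 UMIs per cell. These 98 cells were 39.0% to 52.2% of the Mrc1-type cells in replicates 1, 3, 4, 5 and 7, but 9.09% in replicate 8 (3 of 33 cells) and 0 of 6 in replicate 2.

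Cells with a Ccl8 UMI and cells with a Retnla UMI overlapped in part. Of the 116 cells with Ccl8 and the 80 with Retnla, 39 had both, which is 33.6% of the former and 48.8% of the latter. A missing UMI at this depth does not show that a cell lacked the RNA, so the count shows no separation. Cells with Ccl8 held more Ccl7 (5262 against 1137 CPM), Cbr2 (1287 against 182) and Gas6 (685 against 117), and less Retnla (6445 against 11658) and Il1b (778 against 2026), than the 136 cells without it, each in 6 of 6 mice. The cells with Ccl8 numbered only 6 in replicate 3 and 8 in replicate 8. In the split by Retnla, however, Ccl8 was at 8062 CPM with it and 6024 CPM without, higher in 3 mice and lower in 3.

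Cells with Retnla held more Ccl6 (7099 against 2116 CPM), Ccl9 (2141 against 713), Pltp (1609 against 549) and Folr2 (963 against 439) and less Apoe (21729 against 37631), Spp1 (963 against 8054), Ccl12 (431 against 1171) and Igf1 (244 against 396) than the 172 without it, again in 6 of 6 mice. Ccl6 was present in 71 of the 80 Retnla cells (88.8%), beside 149 of all 252 Mrc1-type cells (59.1%). Arg1 was almost absent from them, at 28.7 against 890 CPM, lower in 5 mice. Levels of MHC class II did not separate with Retnla: Cd74 was higher in 3 mice and lower in 3. The cells with Retnla numbered only 5 in replicate 3, 3 in replicate 7 and 4 in replicate 8. These splits and the genes named in them were picked after the values were seen and are given without a test. The share of all genes that moved the same way in every mouse was not counted.

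**Figure D5:**
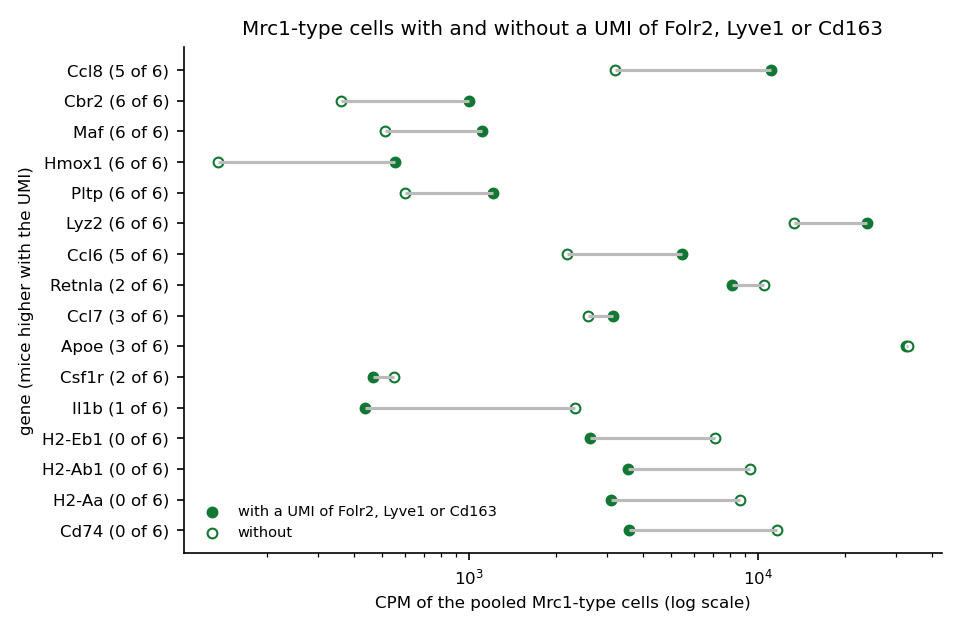
Levels in CPM, on a log axis, in Mrc1-type cells with (filled points) and without (open points) a UMI of Folr2, Lyve1 or Cd163 (98 and 154 cells), pooled over 7 mice. The number of mice higher with the UMI stands beside each gene, and Cd74 is at 3572 against 11693 CPM.

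The Mrc1-type cells were also set against the myeloid cells without C1q of the same mice (352 cells in 7 mice), chosen by 0 UMIs of C1q and of lymphocyte genes, at most 1 UMI of the 3 epithelial genes and at least 3 UMIs of Lyz2, Csf1r, Cd14, Fcgr3, Ccr2, S100a8, S100a9 and Csf3r together, which were left out of this test. Of 486 genes tested, 63 were higher (13% of those tested) and 42 lower (8.64%) in the Mrc1-type cells, 47 and 35 of them in every mouse (edgeR quasi-likelihood test, adjusted p under 0.05). This comparison uses the same Mrc1-type cells as the one above, so the results are not independent of it. Without replicate 4 the counts were 38 and 16, and without replicates 3, 5 and 7 in turn 27, 21 and 15 genes were lower.

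Mature macrophage genes led the higher group. Apoe was at a median of 34806 CPM against 4078 CPM (675 to 4857) in the myeloid cells without C1q, a log2 fold change of 3.45 ± 0.28 (SE, adjusted p = 1.6e-06 by edgeR), and Selenop at 2786 against 177 CPM (69.9 to 260), a log2 fold change of 4.07 ± 0.22 (SE, adjusted p = 1.5e-08). The ranges of both were far apart. Ccl8 (7.26), Cbr2 (5.75), Ccl12 (4.74), Maf (4.22), the membrane protein gene Ms4a7 (3.98), Ccl7 (3.03), the ribonuclease Rnase4 (2.82), Dab2 (2.49), Ctsd (2.44) and the protease inhibitor Timp2 (2.38 on the log2 scale) were higher in all 6 mice, as the choice of named genes required. All 7 resident macrophage genes tested rose (median 4.07), and so did 14 of 20 lysosome genes (median 1.17), 8 of 10 chemokines (median 1.59) and 5 of 6 macrophage identity genes (median 0.99), with none lower in these 4 lists. The median over all genes tested was -0.04, and 13% of them were higher. Only listed genes above the count filter were tested, and a gene can pass it through its level in the Mrc1-type cells alone. The lists were chosen with earlier results of these data known.

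The 2 comparisons placed some genes differently. Retnla, at a median of 7002 CPM, was at 396 to 15361 CPM (median 6621) in the myeloid cells without C1q, with overlapping ranges and an adjusted p of 0.4, and Ccl6 was at 708 to 4717 CPM (median 1850, adjusted p = 0.23, edgeR). Both genes were thus abundant outside the C1q cells as well. None of 6 MHC class II genes was called (median log2 fold change 0.07), with Cd74 at 3353 to 14511 CPM (median 8048) in the myeloid cells without C1q. The dendritic list summed to 524 to 944 CPM in those cells and to 27.2 to 461 CPM in the Mrc1-type cells. What part dendritic cells had in these values was not tested.

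Of the 2 genes of the monocyte list tested against the myeloid cells without C1q, Plac8 was lower and Ms4a6c had a log2 fold change of 0.11 with an adjusted p of 0.83. Plac8, a marker of inflammatory monocytes, was at 0 to 183 CPM (median 61.8) against 699 to 3586 CPM (median 1904), without overlap (log2 fold change -4.11 ± 0.35 SE, adjusted p = 2.5e-06 by edgeR). Among the other large falls, named from the called genes that were lower in every mouse, were the calcium-binding S100a11 (-2.18), S100a4 (-1.95) and S100a6 (-1.33), Plbd1 (-2.02), Lsp1 (-1.75) and the actin-binding Tmsb10 (-1.56 on the log2 scale). So were Ndufa4 (-1.15) and Ndufa6 (-0.91), which encode proteins of the respiratory chain and did not pass without replicate 7 (adjusted p = 0.0596 and 0.166; Ndufa6 also not without replicate 1, 3 or 4, at 0.0626 to 0.224), and the ribosomal protein gene Rpl28 (-1.04). Rpl28 did not pass with DESeq2 (adjusted p = 0.233) or in the WT title series alone (0.182 by edgeR). Of 76 ribosomal protein genes tested, a family counted after the calls were seen, 16 were lower and none higher, with a median of -0.38. Of all genes tested 8.64% were lower. Most of the 16 calls did not hold with DESeq2, with no replicate block or without replicate 7, and none held in the WT title series alone.

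Transcripts known from other cells were among the genes called lower. Lcn2 (-3.27), Csn3 (-2.47) and Wfdc18 (-2.46), which tumor epithelial cells held at means of 8372, 18144 and 13928 CPM, were lower in the Mrc1-type cells than in the myeloid cells without C1q. Between cells with no epithelial UMI, Csn3 had a log2 fold change of -0.65 (adjusted p = 0.228), and with at least 500 genes per cell it did not pass either (0.0857). Lcn2 was also lower against the C1q cells without the 6 genes, at 0 to 553 CPM (median 135) against 45.2 to 1005 (median 315), with the call lost in 8 of 13 alternatives, at adjusted p from 0.0513 to 0.597. Among them were DESeq2 (0.161), the fit with no replicate block (0.597), the CB title series alone (0.084) and cells with no epithelial UMI (0.268). The hemoglobin gene Hbb-bs (-1.48) ran from 0 to 6820 CPM against 0 to 10212 and did not pass without replicate 4 (0.116) or 7 (0.0733). It also did not pass with DESeq2 (0.802) or with no replicate block (0.739). With cells that carried UMIs of other lineages left out, its log2 fold change was -0.31 (adjusted p = 0.687 by edgeR). The transcript of the transgene, PYMT, had 3 UMIs in the Mrc1-type cells and 106 in the other C1q cells, of which 54 were in replicate 8, and over 6 mice its CPM was 9.59 times lower (95% counting interval 3.19 to 47.2), or 22.7 times lower without replicate 4 (3.95 to 909, from 1 and 74 UMIs). The part of free RNA or of doublets in these values was not tested.

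Depth was compared directly by matching. Of the 246 Mrc1-type cells of the 6 mice, 238 could be matched to a C1q cell without the 6 genes of the same mouse with a similar UMI total and 202 to a myeloid cell without C1q, and the unmatched cells were left out. Between matched cells, 36 of the 43 higher and 15 of the 18 lower genes that could be tested again were called again in the comparison with C1q cells without the 6 genes. In the comparison with myeloid cells without C1q, 38 of 43 higher and 20 of 34 lower genes were called again. Against the C1q cells without the 6 genes, Ccl8, Cbr2, Retnla, Ccl7, Pltp, Maf, Ccl6, Ccl2, Selenop, H2-M2, Il1b, Cd74 and H2-Ab1 were called in each of the alternatives in which they were tested.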

How the data were processed

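Mammary tumors of 7 mice were profiled with Drop-seq. The authors deposited 1 matrix of UMI counts per sample, genes by barcodes and not normalized, and their methods name the mm10 genome, extended by PyMT, for the alignment. The submitters' processing notes name STAR, FastQC, hg19 and GRCh37.p13, and the human builds do not match the mouse gene symbols in the files. Mitochondrial genes, listed only in replicates 7 and 8, were dropped here, as were barcodes outside 200 to 6000 genes. No doublet caller was run.

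UMIs were summed per mouse and cell class for mice with at least 10 cells in both classes, and the genes of the rule were left out of totals and tests. Genes were tested with edgeR 4.0.16 (R 4.3.3; TMM, filterByExpr, glmQLFit and glmQLFTest) with mouse as a block, and p-values were adjusted by Benjamini-Hochberg over all genes tested, at a threshold of 0.05. Both classes came from the same mouse, and the deviations of a mouse's 2 sums correlated at 0.128 to 0.492 in the comparison with the C1q cells without the 6 genes and at 0.0351 to 0.473 in that with the myeloid cells. The labels do not state which samples are separate animals and the methods do, so p-values measure the spread between these samples. DESeq2 1.42.0, no filter, UMI matching (log2 ratio of totals at most 0.25), other thresholds and leaving out each replicate were tried as alternatives. In counts simulated without mouse effects, every changed gene was set to the same size of change. The first comparison then called 35 of 36 changed and 1 of 775 unchanged genes, and the second 50 of 50 and 4 of 470. These numbers cover only the genes that were tested, at a size above many of the changes called here. They give no rate for smaller changes. Whether they hold for the measured counts, with their spread between mice, was not tested. Shares have 95% Wilson intervals, CPM ratios exact binomial ones, and both cover counting error only. Gene positions are from GENCODE (GRCm38) and promoters from RefSeq (GRCm38.p6).

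The cell class and the gene lists were chosen with earlier results of these data known. Genes named in the text were the 12 of the rule, in each comparison the 12 largest rises and falls among called genes that moved the same way in every mouse, up to 4 called genes per list (the 2 most abundant where none was called), Hk1 to Hk3 and PYMT, and others are named as picked after their values were seen or to show a list's contents. The alternatives that admitted mice with at least 5 cells, left out cells with dendritic or granulocyte UMIs, kept 1 of near-identical barcodes, or recomputed the ratios and bounds of sparse genes without each replicate were chosen after seeing the data.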

Additional observations from a re-analysis of the deposited data

Results flagged for a closer look

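Of 34 levels checked over 6 mice in the Mrc1-type cells, 5 had 1 mouse that stood apart by Dixon's criterion, which flags about 1 in 20 by chance. Lyve1 was at 1244 CPM in replicate 1 against 38.8 to 393 in the other mice, and Cd163 at 783 CPM in replicate 1 against 0 to 59.8. Both are receptors of perivascular macrophages, and in replicate 1 they rested on 23 cells. Emp1 was also highest in replicate 1, at 553 CPM against 272 to 349. Pf4 was lowest in replicate 3, at 1939 CPM against 2640 to 3011, and Pltp highest in replicate 5, at 1230 CPM against 776 to 860.

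Barcodes with fewer than 200 genes were outside every comparison. Among 21950 of them, 29 met the UMI thresholds for a Mrc1-type cell, 16 of them in replicate 4 and none in replicate 2.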

How the results depend on the processing

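Against the C1q cells without the 6 genes (70 genes higher, 39 lower), the counts were 26 and 15 in the WT title series alone, 35 and 14 with at least 500 genes per cell, 40 higher without cells carrying UMIs of other lineages, 39 and 18 with UMI matching, 23 lower with no replicate block and 283 lower with no filter on low counts. The unfiltered fit shifted the median log2 fold change of the same genes by -0.47, so that 23.3% of its calls were higher against 64.2%, and Apoe turned to -0.42 (adjusted p = 0.00285). DESeq2 shifted the median by -0.13 and called 65 higher and 35 lower, among them 37 of the 70 and 25 of the 39. Leaving out 1 replicate gave 39 to 87 higher and 17 to 52 lower, the lowest without replicate 4, which held the most cells.

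Against the myeloid cells without C1q (63 higher, 42 lower), the counts were 38 and 13 in the CB series, 33 and 10 in the WT series, 18 and 5 with at least 500 genes (3 mice), 121 higher with no filter, and, for lower genes, 23 with at least 3 UMIs of the 6 genes, 20 without other lineages, 21 with matching, 27 with no epithelial UMI and 15 with no replicate block. DESeq2 called 60 higher and 28 lower, among them 40 of the 63 and 14 of the 42. Leaving out 1 replicate gave 38 to 63 higher and 15 to 35 lower, with 27, 16, 21 and 15 lower without replicates 3, 4, 5 and 7. The cause of these changes was not tested.

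The share of Mrc1-type cells (16.05%) was 23.3% with at least 500 genes per cell and 29.4% with at least 1 UMI of the 6 genes, 11.4% with at least 3, and 14.7% to 17.3% without 1 replicate. Of the alternatives for single named genes in the first comparison, 1457 left the call or its absence unchanged, 153 lost the call and 31 gained it. In 1 further alternative the direction changed for a gene that was called in either fit. In the second comparison 1123 left the call or its absence unchanged, 78 lost it and 19 gained it. The unchanged ones include changes of direction of genes that were called in neither fit. The tests covered 809 and 486 genes, and genes under the count minimum were not tested.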
